A study of Mus musculus with 28 samples.

Results

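The genes described here are 7 enzymes that make, remove or are closely related to enzymes that make retinoic acid: Adh1, Aldh1a1, Aldh1a2, Aldh1a3, Aldh1a7, Dhrs3 and Cyp26b1. They were taken by symbol, through their Ensembl identifiers, from the 56748 genes of a table of RNA counts from mouse kidney, and all 7 were present and passed the filter on low counts that left 17573 genes. The study compared kidneys carrying different forms of aquaporin-3 (Aqp3), a water channel of the collecting duct. The 6 groups were male Q, male R, male WT, female Q, female R and female WT, with 5 libraries each except female R, which had 3. Q is a mimetic of the acetylated form, R a mimetic of the deacetylated form, and WT the unchanged channel. All mice were untreated and on ordinary food and water, and the decapsulated kidneys had been frozen after collection in the morning of a 12 h light phase, at ZT 2 to 5. The sources used here do not give the strain, the age, the zygosity or the way the alleles were made. The labels do not say that each library is a separate animal, so the p-values measure the spread between libraries, which may in part be technical.

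Retinoic acid is made from vitamin A in consecutive steps. Alcohol dehydrogenases and retinol dehydrogenases oxidise retinol to retinal, short-chain reductases such as Dhrs3 run that step backwards, and aldehyde dehydrogenases of the Aldh1a family oxidise retinal to retinoic acid irreversibly. Enzymes of the Cyp26 family then hydroxylate retinoic acid and so end its action on nuclear receptors. In the kidney the pathway is known for its part in the branching of the developing ureteric bud, and the dehydrogenases also act on ethanol and on aldehydes of lipid peroxidation.

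Total counts ran from 14825417 to 21403804 per library. Markers of the proximal tubule were all present, and the summed level of the 12 markers ran from 22637 to 29611 CPM (counts relative to the library total, scaled by TMM) over the 28 libraries. Aqp3 had at least 1484 counts in every library, but a gene count does not show which form was carried. A pair of libraries stood apart in mitochondrial transcripts, with a share of 7.74% of counts in male Q replicate 4 and 3.94% in female Q replicate 5, while the other 26 held 9.55% to 12.1%. The library labelled female WT replicate 2 had 0.515 CPM of Xist, against at least 214 CPM in the other 12 female libraries, and no male level of the Y-linked Ddx3y (0.14 CPM, against at least 37.1 CPM in males). For genes called between the sexes, for the ratio of Aldh1a1 to Aldh1a7 and for the counts over gene lists, values without these libraries follow.

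Aldh1a1 and Aldh1a7 need to be shown first by sequence, because they are neighbours on chromosome 19 and close relatives. The Aldh1a1 enzyme is a cytosolic retinal dehydrogenase, and Aldh1a7 is a rodent relative that is known to handle small aldehydes and to have little activity on retinal. The RefSeq promoter windows (GRCm38.p6, an older build than the GRCm39 of the counts) were searched for 6 of the 7 genes. The 250 bases before the start site are printed 5′ to 3′ for the downstream of both Aldh1a1 start sites (chr19:20601718-20601967, plus strand), for Aldh1a7 (chr19:20727557-20727806, minus strand) and for Aldh1a2 (chr9:71215539-71215788, plus strand), with the octamer ATGCAAAT in capitals. They are shown because the first pair is nearly the same close to the start, whereas Aldh1a2 shares the octamer with them in a window that is otherwise different.
Aldh1a1: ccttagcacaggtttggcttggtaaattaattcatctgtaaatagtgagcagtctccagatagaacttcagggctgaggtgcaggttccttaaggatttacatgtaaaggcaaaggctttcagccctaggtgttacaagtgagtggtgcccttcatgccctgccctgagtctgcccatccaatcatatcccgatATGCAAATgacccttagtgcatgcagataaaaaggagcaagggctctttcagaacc
Aldh1a7: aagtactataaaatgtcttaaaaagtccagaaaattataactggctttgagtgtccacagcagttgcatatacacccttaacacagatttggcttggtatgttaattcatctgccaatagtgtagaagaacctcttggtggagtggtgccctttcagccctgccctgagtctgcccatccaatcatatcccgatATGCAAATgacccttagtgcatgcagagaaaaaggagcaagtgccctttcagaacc
Aldh1a2: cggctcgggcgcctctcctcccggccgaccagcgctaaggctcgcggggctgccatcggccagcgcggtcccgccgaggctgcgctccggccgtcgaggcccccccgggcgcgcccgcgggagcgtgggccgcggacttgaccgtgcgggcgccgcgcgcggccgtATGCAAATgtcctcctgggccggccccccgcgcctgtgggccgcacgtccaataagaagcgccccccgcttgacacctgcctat
In the last 100 bases before the start, 94 were identical between Aldh1a1 and Aldh1a7 at the same position, or 94.0%, and every other pair of windows from different genes had 16% to 33%. The octamer began 56 bases before the start in both of these windows and 84 bases before it in Aldh1a2. Counting both strands, it was found in 570 of all 32851 promoter windows of the reference table, or 1.74%. A direct repeat read by retinoic acid receptors, AGGTCA and again AGGTCA after 5 bases, and an inverted repeat read by the androgen receptor, AGAACA and TGTTCT with 3 bases between, were in none of the windows of these genes. The CCAAT box, CCAAT on either strand, began 72 bases before the start in both Aldh1a1 and Aldh1a7, 2 bases before it in Aldh1a1, 137 in Aldh1a7 and 36 in Aldh1a2. In overlapping windows of Dhrs3 it began 191, 149 and 89 bases before a start. The box was in 37.4% of all windows. Each of the 2 repeats was found in 3 windows of the whole table, or 0.00913%, so these letters are too strict to be met often. The motifs searched do not overlap one another, and a match is a description of letters only.

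The likeness also bears on the counting. The longest coding transcripts of Aldh1a1 (2358 bases) and Aldh1a7 (2066 bases) were 89.0% identical over their alignment, whereas the other pairs of Aldh1a genes were 64.8% to 66.3% identical. Of the 50-base stretches of Aldh1a7, 7.49% also occurred in Aldh1a1, and of its 100-base stretches 0.05%. No such stretch was shared between the other pairs. Reads that fit both genes were left out by the default of the counting tool, so the counts of Aldh1a1 and Aldh1a7 are less certain than those of the other genes. The exons of Adh1 overlap those of Gm16559 on the opposite strand by 136 bases, and counting used no strand.

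Per length, Adh1 was the most abundant of the 7 genes in male kidneys and shared the top with Dhrs3 in female kidneys. Adh1 averaged 626 ± 297, 418 ± 79.2 and 381 ± 39.4 CPM per kb of transcript in male Q, male R and male WT kidneys (SD, n = 5 each). In female Q, female R and female WT kidneys it averaged 94.6 ± 6.58, 95.8 ± 4.68 and 102 ± 7.2 CPM per kb (SD, n = 5, 3 and 5). Dhrs3 averaged 88.9 to 101 CPM per kb over the 6 groups, and the 5 other genes 1.41 to 10.1 CPM per kb. In females Adh1 and Dhrs3 did not differ beyond their spread on this scale, and per kb of all annotated exons Adh1 was the lower, at 63.2 to 68.4 CPM per kb beside 71.5 to 80.9 CPM per kb of Dhrs3. The order among the 5 low genes changed between groups, with Aldh1a7 highest of them in each male group and Aldh1a1, Aldh1a7 and Aldh1a3 within their spread of each other in female WT.

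**Figure D1:**
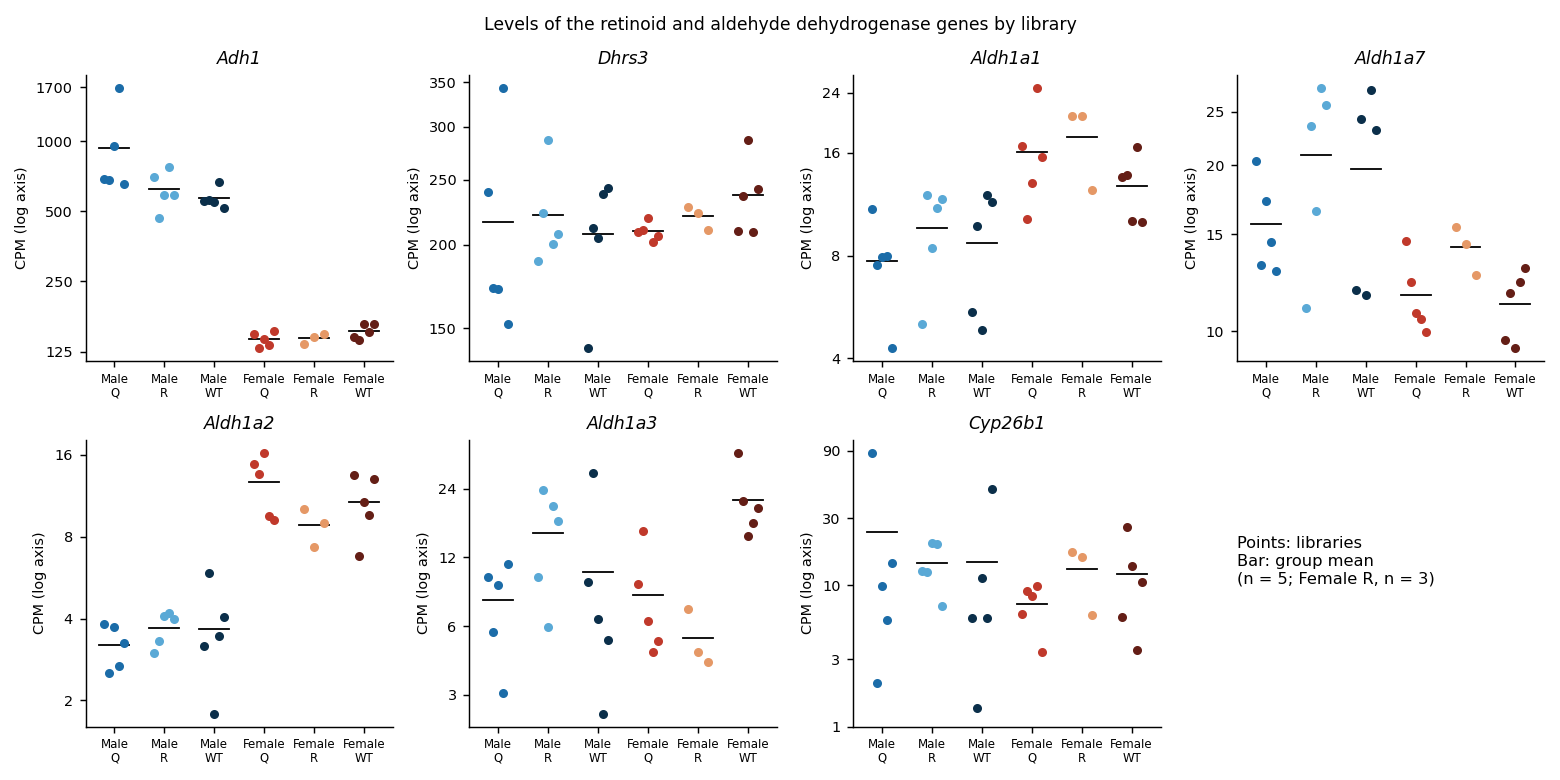
Level of each of the 7 genes in each of the 28 libraries, as TMM-scaled CPM on a log axis, by group; points are libraries and bars are group means. Adh1 lies between 467 and 1696 CPM in the male libraries and between 129 and 164 CPM in the female libraries, Aldh1a2 lies the other way round, and Cyp26b1 spreads from 1.36 to 87.2 CPM within the male groups.

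The comparison of male with female kidneys within a genotype asks how far each gene depends on sex. Adh1, the class I alcohol dehydrogenase that oxidises ethanol and retinol, was higher in male than in female kidneys of every genotype, 6.62-fold in Q, 4.37-fold in R and 3.72-fold in WT. Aldh1a2, the retinal dehydrogenase of mesenchyme and mesothelium that makes most retinoic acid in the embryo, was lower in males of every genotype, at 0.253, 0.419 and 0.341 times the female level in Q, R and WT. Aldh1a1 was lower in males in Q, and Aldh1a7 was higher in males in WT. Dhrs3, Aldh1a3 and Cyp26b1 passed the test in none of the 3 genotypes.

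Counted over the 7 genes, 3 passed in Q (1 higher and 2 lower in males), 2 in R (1 higher and 1 lower) and 3 in WT (2 higher and 1 lower), at an adjusted p under 0.05 in edgeR's quasi-likelihood test over all genes. Over all 17573 genes the share called was 23.1% in Q (11.9% higher and 11.2% lower in males), 14.1% in R (7.07% higher and 7.01% lower) and 16.5% in WT (8.22% higher and 8.31% lower). With 7 genes, a share of 2 or 3 called is a description of these genes and not a measure of the group. The median log2 fold change of the 7 genes, male over female, was 0.04 in Q, 0.14 in R and -0.19 in WT, beside -0.02, -0.03 and -0.03 over all genes tested.

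**Figure D2:**
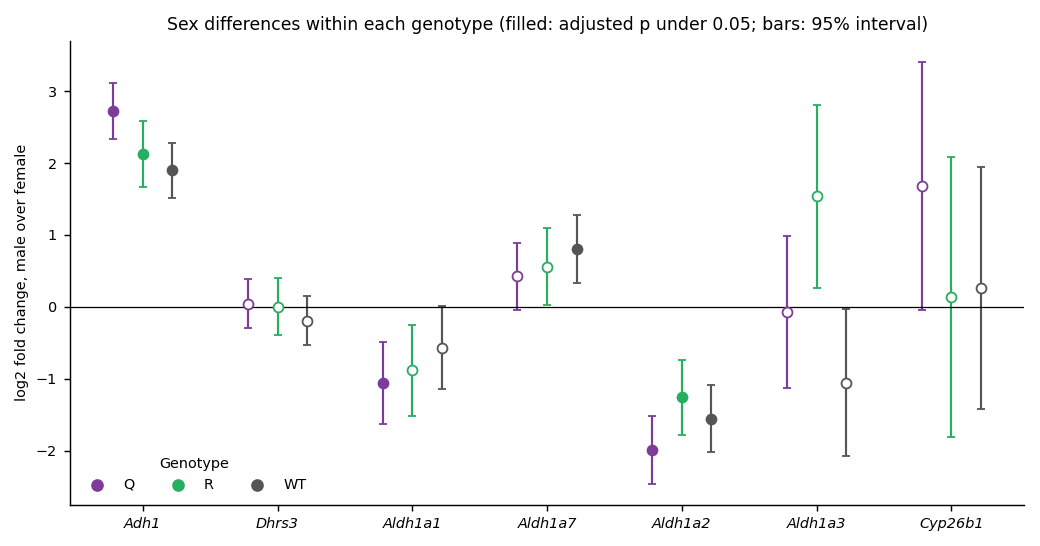
Fitted log2 fold change of male over female kidneys for each of the 7 genes in Q, R and WT; bars are 95% intervals and filled points have an edgeR adjusted p under 0.05. Adh1 lies at 1.90 to 2.73 and Aldh1a2 at -1.98 to -1.25 in the 3 genotypes, Dhrs3 lies close to 0 with narrow intervals, and Aldh1a3 and Cyp26b1 have the widest intervals.

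Adh1 had 684, 684, 957, 1696 and 653 CPM in male Q kidneys, against 149, 129, 142, 134 and 153 CPM in female Q kidneys. It had 704, 467, 588, 773 and 587 CPM in male R kidneys, against 135, 145 and 149 CPM in female R kidneys. In male WT kidneys it had 554, 557, 546, 670 and 516 CPM, against 145, 140, 164, 151 and 164 CPM in female WT kidneys. The lowest male library was thus well above the highest female library, and the females of all genotypes lay in a narrow band. The log2 fold change, male over female, was 2.73 in Q (SE 0.187, edgeR adjusted p = 1.71e-12), 2.13 in R (SE 0.222, edgeR adjusted p = 2.69e-08) and 1.90 in WT (SE 0.181, edgeR adjusted p = 3.09e-09). By p it stood at place 57 in Q, 103 in R and 117 in WT among the 17573 genes. Without male Q replicate 4 the value in Q was 2.40, without female Q replicate 5 it was 2.76, and without female WT replicate 2 the value in WT was 1.88.

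Markers of the third segment of the proximal tubule moved with Adh1 between the sexes. Their summed level over 8 markers had a median of 7597 CPM (6910 to 8182) in male Q, against 2587 CPM (2097 to 2695) in female Q, and 5908 CPM (5280 to 6905) in male WT, against 2263 CPM (1959 to 2821) in female WT. In R the medians were 6098 CPM (5183 to 7601) in males and 2328 CPM (2303 to 2511) in females. Of the 8 markers, 4 were higher and 2 lower in males in each genotype, none was at 0, and their part in the difference of Adh1 was not tested. Within groups, r between Adh1 and this sum was 0.45 over the 28 libraries (rho 0.55), with an adjusted permutation p of 0.117 for r and 0.0924 for rho over 28 relations of the 7 genes to marker sums, of which none passed. In whole kidney, fewer cells of a type and less RNA per cell cannot be told apart.

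Dhrs3, which reduces retinal back to retinol, did not pass the test between the sexes. Its levels ran from 152 to 344 CPM in male Q, 189 to 286 CPM in male R and 140 to 243 CPM in male WT, against 202 to 219 CPM in female Q, 210 to 228 CPM in female R and 209 to 287 CPM in female WT. The groups overlapped throughout, and males were more scattered than females in each genotype, with a coefficient of variation of 36.5% against 3.13% in Q, 17.4% against 4.13% in R and 19.9% against 13.4% in WT. Without male Q replicate 4, its highest library, the coefficient in male Q was 20.9%, and without female WT replicate 2 that in female WT was 15.5%. The fitted log2 fold change in Q was 0.05, and -0.18 without male Q replicate 4. The 95% intervals of the log2 fold change, male over female, were -0.30 to 0.39 in Q, -0.39 to 0.40 in R and -0.53 to 0.15 in WT, so that a difference of the size seen for Adh1 lay outside each of them.

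Aldh1a2 had 3.82, 2.53, 3.72, 2.68 and 3.25 CPM in male Q kidneys, against 14.9, 13.6, 16.3, 9.57 and 9.23 CPM in female Q kidneys. It had 2.98, 3.30, 4.07, 4.21 and 3.98 CPM in male R kidneys, against 10.2, 7.36 and 9.01 CPM in female R kidneys. In male WT kidneys it had 3.17, 5.90, 1.79, 3.46 and 4.05 CPM, against 13.5, 6.79, 10.7, 9.66 and 13 CPM in female WT kidneys. No male library reached the lowest female library, which was the library labelled female WT replicate 2. The log2 fold change, male over female, was -1.98 in Q (SE 0.227, edgeR adjusted p = 6.01e-08), -1.25 in R (SE 0.25, edgeR adjusted p = 0.000584) and -1.55 in WT (SE 0.225, edgeR adjusted p = 5.5e-06). Without female WT replicate 2 it was -1.67 in WT, and in Q it was -1.92 without male Q replicate 4 and -2.07 without female Q replicate 5. These levels rest on 37 to 345 counts per library.

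Summed markers of fibroblasts and pericytes, 8 genes, were also lower in males, with medians of 211 CPM (199 to 223) in male Q against 277 CPM (261 to 291) in female Q and 196 CPM (187 to 229) in male WT against 281 CPM (218 to 288) in female WT. In R the ranges were 195 to 228 CPM in males and 196 to 266 CPM in females. Of these 8 markers 4 passed in Q, 5 in WT and 0 in R, all lower in males, and none was at 0. Their median log2 fold change in WT, -0.411, was not particular to them. It was -0.367 for podocyte markers, -0.383 for intercalated cells, -0.375 for thick ascending limb and distal tubule, and -0.303 for endothelium. Only the lists of proximal tubule (0.028 for all segments, 0.724 for the third segment) and blood (0.009) lay above 0. The summed mesothelium markers overlapped between the sexes, with 118 to 169 CPM over the male groups and 136 to 212 CPM over the female groups. Of the 6 tested mesothelium markers 1 passed in Q, 0 in R and 2 in WT, all lower in males, and their median log2 fold change was -0.19, -0.17 and -0.53. Within groups, r between Aldh1a2 and the summed markers of both lists together was -0.01 over the 28 libraries (rho -0.07). The adjusted permutation p was 0.967 for r and 0.787 for rho. The part of fibroblasts, pericytes or mesothelium in the difference of Aldh1a2 was not tested.

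Aldh1a1 had 10.9, 7.51, 7.91, 7.96 and 4.28 CPM in male Q kidneys, against 16.7, 10.2, 13.1, 24.8 and 15.6 CPM in female Q kidneys. It had 5.05, 12.0, 8.40, 11 and 11.7 CPM in male R kidneys, against 20.5, 20.5 and 12.4 CPM in female R kidneys. In male WT kidneys it had 5.48, 9.79, 4.84, 12.0 and 11.5 CPM, against 13.5, 13.8, 10.1, 16.6 and 10.03 CPM in female WT kidneys. The sexes overlapped in Q and in WT, and in R the lowest female library lay just above the highest male library. Male over female, the log2 fold change was -1.06 in Q (SE 0.276, edgeR adjusted p = 0.00554), -0.88 in R (SE 0.306, edgeR adjusted p = 0.0531) and -0.56 in WT (SE 0.275, edgeR adjusted p = 0.175). The value in R passed the threshold under the DESeq2 Wald test (adjusted p = 0.0329), so the call in R depends on the tool. The value in Q was -1.07 without male Q replicate 4 (edgeR adjusted p = 0.0151) and -1.07 without female Q replicate 5 (edgeR adjusted p = 0.00912).

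Aldh1a7 had 20.4, 13.2, 17.2, 14.5 and 12.8 CPM in male Q kidneys, against 14.6, 12.3, 10.8, 10.5 and 9.96 CPM in female Q kidneys. It had 11, 23.6, 16.5, 27.7 and 25.8 CPM in male R kidneys, against 15.5, 14.4 and 12.7 CPM in female R kidneys. In male WT kidneys it had 11.9, 24.3, 11.6, 27.4 and 23.2 CPM, against 9.63, 11.8, 9.31, 12.3 and 13 CPM in female WT kidneys. Male WT fell into a high trio, replicates 2, 4 and 5, and a low pair that overlapped the females. Male over female, the log2 fold change was 0.43 in Q (SE 0.225, edgeR adjusted p = 0.184), 0.56 in R (SE 0.26, edgeR adjusted p = 0.16) and 0.81 in WT (SE 0.225, edgeR adjusted p = 0.0122). That call in WT was lost without male WT replicate 4, at 0.66 (edgeR adjusted p = 0.0538), without the filter on low counts (edgeR adjusted p = 0.0543) and with limma's voom weights (adjusted p = 0.0671). Without female WT replicate 2 the value was 0.83 (edgeR adjusted p = 0.0218).

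As a ratio within a library, which needs no scaling between libraries, Aldh1a1 and Aldh1a7 separated the sexes in every genotype. Aldh1a1 had 0.333 to 0.569 counts per count of Aldh1a7 in male Q against 0.833 to 2.36 in female Q, 0.398 to 0.51 in male R against 0.981 to 1.42 in female R, and 0.403 to 0.495 in male WT against 0.769 to 1.41 in female WT. The highest male ratio was below the lowest female ratio, so Aldh1a7 was the more counted of the pair in every male kidney. The mean log2 ratio was -1.06 ± 0.318 in male Q against 0.42 ± 0.56 in female Q, -1.11 ± 0.147 in male R against 0.30 ± 0.284 in female R, and -1.18 ± 0.118 in male WT against 0.18 ± 0.347 in female WT (SD).

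The difference of the mean log2 ratio, male minus female, was -1.47 in Q, -1.40 in R and -1.36 in WT. In two-sided exact permutation tests p was 0.00794 in Q and in WT, the smallest that a two-sided test of 5 libraries against 5 allows, and 0.0357 in R, the smallest that 5 against 3 allow in the same test. Adjusted over these 3 exact tests the values were 0.0119, 0.0357 and 0.0119 in Q, R and WT. Without male Q replicate 4 the difference in Q was -1.52, without female Q replicate 5 it was -1.42, and without female WT replicate 2 that in WT was -1.34, each with an exact permutation p of 0.0159, the smallest that 4 against 5 allow. The ratio was chosen after the levels had been seen.

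**Figure D3:**
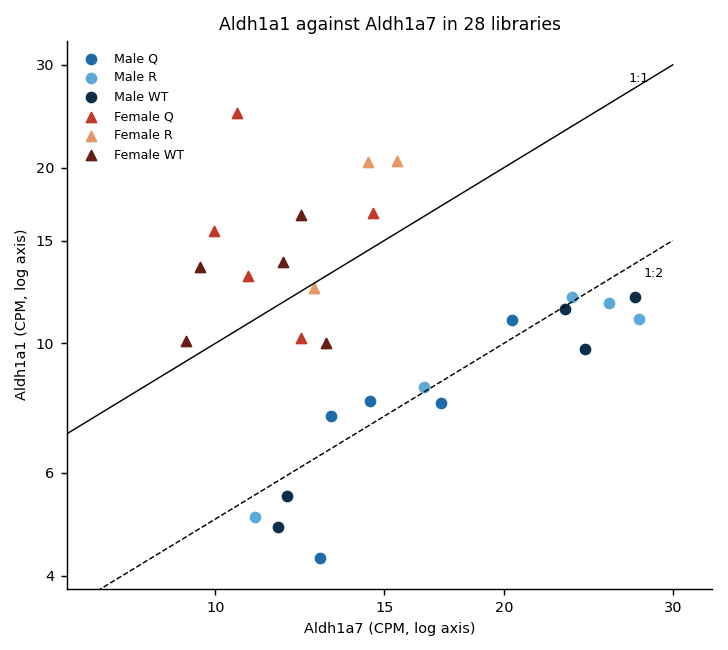
Aldh1a1 against Aldh1a7 in each of the 28 libraries, both as TMM-scaled CPM on log axes, with circles for male and triangles for female libraries and lines at ratios of 1 to 1 (solid) and 1 to 2 (dashed). The male libraries lie along the dashed line from low to high levels of both genes, whereas the female libraries lie around or above the solid line with no slope visible.

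The levels of the pair also varied together from library to library within groups. After each group's mean was subtracted, Pearson's r of log2 CPM was 0.73 over the 28 libraries (Spearman's rho 0.73, permutation p = 0.00067 and 0.00049). It was the one pair of the 21 among these genes that passed, with adjusted p of 0.0141 for r and 0.0103 for rho in the permutation test. Without male R replicate 1 and male Q replicate 5, the libraries farthest from the median of Aldh1a1, r was 0.66. Within the 15 male libraries r was 0.92 (permutation p = 0.00012), and within the 13 female libraries it was 0.10 (permutation p = 0.769). The difference between the sexes in r was not tested, and neither was the part of reads shared by the genes.

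Aldh1a3, the retinal dehydrogenase of ureteric and other epithelia, had a wide spread between the libraries of most groups. It had 9.82, 5.68, 9.13, 3.05 and 11.3 CPM in male Q kidneys, against 9.21, 15.7, 6.32, 4.61 and 5.15 CPM in female Q kidneys. It had 9.85, 23.8, 5.96, 20.2 and 17.4 CPM in male R kidneys, against 7.13, 4.60 and 4.17 CPM in female R kidneys. In male WT kidneys it had 9.40, 28.1, 6.44, 2.48 and 5.23 CPM, against 34.5, 21.2, 14.8, 17 and 19.8 CPM in female WT kidneys. Male WT replicate 2 lay among the female WT values and the other male WT libraries below all of them, while the sexes overlapped in Q and in R. The log2 fold change, male over female, was -0.06 in Q (SE 0.509, edgeR adjusted p = 0.95), 1.54 in R (SE 0.615, edgeR adjusted p = 0.101) and -1.05 in WT (SE 0.493, edgeR adjusted p = 0.159). Without male WT replicate 2 the value in WT was -1.85, with an edgeR adjusted p of 0.00462.

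Cyp26b1, which hydroxylates retinoic acid, had the widest range of the 7 genes. It had 87.2, 2.02, 9.82, 5.72 and 14.5 CPM in male Q kidneys, against 6.26, 9.17, 8.44, 9.88 and 3.36 CPM in female Q kidneys. It had 12.6, 12.4, 20.02, 19.8 and 7.15 CPM in male R kidneys, against 17.3, 15.8 and 6.21 CPM in female R kidneys. In male WT kidneys it had 5.88, 1.36, 11.3, 5.88 and 48.2 CPM, against 5.98, 25.8, 13.8, 3.51 and 10.6 CPM in female WT kidneys. Single libraries, male Q replicate 1 and male WT replicate 5, held the high ends, and the groups overlapped. In the fit, the log2 fold change of male over female was 1.68 in Q (SE 0.83), 0.14 in R (SE 0.937) and 0.27 in WT (SE 0.81), with edgeR adjusted p of 0.156, 0.945 and 0.878. Without male Q replicate 1 the value in Q was 0.12, and without male WT replicate 5 that in WT was -0.96. The 95% interval in Q, -0.04 to 3.41, shows how little these libraries fix the value.

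The comparison of Q and R with WT within a sex addresses the study's main factor, the form of aquaporin-3. None of the 7 genes passed in any of the 9 genotype contrasts or the 2 contrasts of sex differences between genotypes. Over all 17573 genes the share called at an edgeR adjusted p under 0.05 was 0% in each of them. At an unadjusted p under 0.05, 1 of the 7 genes stood out in male Q against male WT, where 5.1% of all genes did, and 0 of 7 in male R against male WT, where 2.13% did. In female Q against female WT it was 1 of 7, beside 2.94% of all genes, and in female R against female WT 1 of 7, beside 1.92%. Between Q and R it was 1 of 7 in males, beside 4.1% of all genes, and 1 of 7 in females, beside 3.03%. Over both sexes the counts were 2 of 7 for Q against WT (4.72% of all genes), 0 for R against WT (1.34%) and 2 for Q against R (3.93%). For Q against WT the genes were Adh1 and Aldh1a3, at 0.30 and -0.89 on the log2 scale (edgeR adjusted p = 0.92 for each). For Q against R they were Adh1 and Aldh1a7, at 0.28 and -0.35 (edgeR adjusted p = 0.986 for each). In the contrasts of sex differences the counts were 1 of 7 for Q against WT (3.11%) and 1 of 7 for R against WT (2.82%).

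The male gene with an unadjusted p under 0.05 was Adh1, against WT and against R. With the levels given above, male Q kidneys averaged 935 ± 443 CPM and male WT kidneys 569 ± 58.7 CPM (SD, n = 5 each), which is 0.72 on the log2 scale (95% interval 0.35 to 1.08). Its unadjusted p was 0.000322 and its edgeR adjusted p 0.795, at place 6 of the 17573 genes by p. Of the 5 male Q libraries, 4 lay between 653 and 957 CPM, and replicate 4, which also held the low share of mitochondrial transcripts, lay at 1696 CPM. Without that library the log2 fold change was smaller but still above 0, at 0.39 (SE 0.112, beside 0.176 with it), with an edgeR adjusted p of 1. In females the values were -0.11 for Q against WT and -0.10 for R against WT, and in male R against male WT 0.13. Male Q stood 0.58 above male R (unadjusted p = 0.00241, edgeR adjusted p = 1), and 0.25 without male Q replicate 4. The sex difference in Q minus that in WT was 0.83 on the log2 scale (unadjusted p = 0.00232, edgeR adjusted p = 0.999), with a range of 0.49 to 0.94 when single libraries were left out and its lowest value without male Q replicate 4.

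In females the gene with an unadjusted p under 0.05 against WT was Aldh1a3. Female Q kidneys averaged 8.20 ± 4.57 CPM, female R kidneys 5.30 ± 1.6 CPM and female WT kidneys 21.5 ± 7.70 CPM (SD, n = 5, 3 and 5). All 3 female R libraries lay below every female WT library, and 4 of the 5 female Q libraries did, while replicate 2 of female Q lay between the lowest 2 values of female WT. The log2 fold change over WT was -1.39 in female Q (95% interval -2.42 to -0.35, unadjusted p = 0.0104, edgeR adjusted p = 1) and -2.01 in female R (95% interval -3.30 to -0.72, unadjusted p = 0.00366, edgeR adjusted p = 1). In males it was -0.40 in Q and 0.58 in R, and the sex difference in R minus that in WT was 2.59 (unadjusted p = 0.00322, edgeR adjusted p = 0.992). Leaving out single libraries gave -2.29 to -1.77 for the female R value. Between female Q and female R the gene was Aldh1a2, with 12.7 ± 3.16 CPM in female Q and 8.84 ± 1.41 CPM in female R (SD, n = 5 and 3), a log2 fold change of 0.52 (95% interval 0.01 to 1.03, unadjusted p = 0.0425, edgeR adjusted p = 0.998).

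Of the 8 urothelium markers and of the 8 markers of thin limb and inner medulla, 0 passed in female Q or in female R against female WT in edgeR's test. Since 0% of all genes passed there, that count says little. At an unadjusted p under 0.05, 1 urothelium marker stood out in female Q and 2 in female R. Of the thin limb list it was 4 in female Q and 2 in female R, beside 2.94% and 1.92% of all genes. The median log2 fold change of the urothelium list was -0.50 in female Q and -0.54 in female R, and that of the thin limb list -0.35 and -0.07. The summed level of the 8 urothelium markers was 25.4 to 59.3 CPM in female Q, 25.2 to 41.5 CPM in female R and 37.4 to 61.8 CPM in female WT. That of the 8 markers of thin limb and inner medulla was 305 to 576 CPM in female Q, 315 to 557 CPM in female R and 431 to 711 CPM in female WT. No marker of either list was at 0. The ranges of both sums overlapped between female Q, female R and female WT. Within groups, r between Aldh1a3 and the urothelium sum was 0.57 over the 28 libraries (rho 0.57). The adjusted permutation p was 0.151 for r and 0.0924 for rho over 28 relations. Without the 2 farthest libraries r was 0.36, and without the 2 libraries that stood apart in mitochondrial transcripts it was 0.75. It was 0.52 within the 15 male and 0.72 within the 13 female libraries. The part of these cell types in the levels of Aldh1a3 was not tested.

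**Figure D4:**
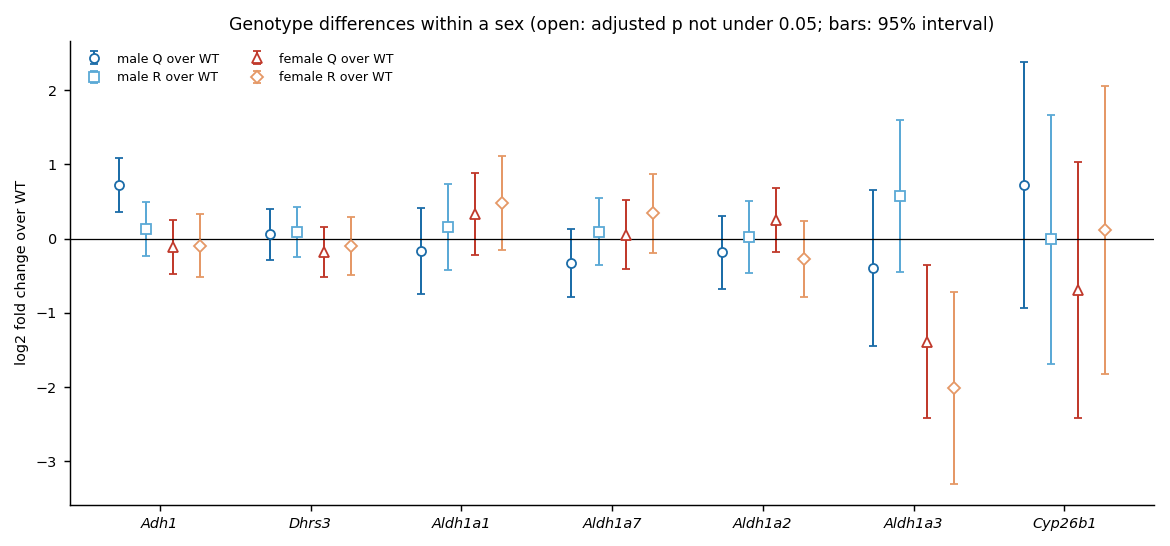
Fitted log2 fold change over WT of the same sex for each of the 7 genes in male Q, male R, female Q and female R; bars are 95% intervals, and none has an edgeR adjusted p under 0.05. Male Q stands at 0.72 for Adh1, and female Q and female R stand at -1.39 and -2.01 for Aldh1a3, while the intervals of all other values include 0.

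For the remaining genes the data bound the differences more or less tightly. The 95% intervals of Dhrs3 over WT lay within -0.52 and 0.43 on the log2 scale in all 4 comparisons. Those of Aldh1a2 lay within -0.78 and 0.68, those of Aldh1a7 within -0.79 and 0.87, and those of Aldh1a1 within -0.75 and 1.11. For Cyp26b1 they ran from -2.42 to 2.38. A change of Cyp26b1 by a factor of several would therefore not have been detectable here, whereas one of that size in Dhrs3 lies outside its intervals.

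The genes whose levels followed each member most closely within groups are given as a description, by Pearson's r of log2 CPM over the 28 libraries with group means subtracted. Itga2 (0.85), Klrg2 (0.79) and Sptssb (0.75) were closest to Aldh1a3, and Sptssb is among the thin limb markers used above. Lpo (0.81), Rbm10 (0.74) and Aldh1a1 (0.73) were closest to Aldh1a7. Aldh1a7 (0.73), Rfx1 (0.70) and Cyp2d12 (0.69) were closest to Aldh1a1. For Aldh1a2 they were Sqle (0.71), Nploc4 (0.71) and Hspa4 (0.70). For Dhrs3 they were Pick1 (0.81), Pqbp1 (0.80) and Nol12 (0.80), with rho of 0.64, 0.66 and 0.69. For Adh1 they were Arpp19 (0.88), Atp5k (0.88) and Cox8a (0.88), with rho of 0.64, 0.56 and 0.58. Male Q replicate 4 held the highest level of Adh1 and of Dhrs3, and r of their closest genes without it is not given here. Between Adh1 and Dhrs3 r was 0.47, and -0.07 without both libraries that stood apart. For Cyp26b1 the closest genes were Ptpru (0.85), Pou2af1 (0.78) and Cd38 (0.73), with rho of 0.65, 0.77 and 0.55. All of these genes share the library and its depth. Pou2af1 (group means of 0.164 to 0.482 CPM) and Lpo (0.192 to 0.61 CPM) rest on few counts.

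Around the 7 genes, the rest of the retinoid pathway and the other aldehyde dehydrogenases were described by lists. Of 72 further genes 60 were tested, and in male against female kidneys 19 were higher and 15 lower in Q, 13 higher and 12 lower in R, and 11 higher and 11 lower in WT, by edgeR's adjusted p. That is 56.7%, 41.7% and 36.7% of the 60, beside 23.1%, 14.1% and 16.5% of all genes. In all 3 genotypes 10 of the 60 were higher and 9 lower in males, beside 5.23% and 4.04% of all 17573 genes. The lists were chosen with earlier results of these data known, and their genes were not matched to all genes by level. These shares are therefore a description only. Without male Q replicate 4 the counts in Q were 17 higher and 14 lower, without female Q replicate 5 they were 19 and 15, and without female WT replicate 2 those in WT were 11 and 10. Without both of these Q libraries, which enter the estimate of spread that all groups share, they were 17 and 14 in Q, 15 and 14 in R, and 19 and 14 in WT. The share of all genes called in that fit is not given here. The changes in count, here and in the lists below, are therefore no measure of these genes. None of the 60 passed in a genotype contrast.

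Among the 16 other enzymes that interconvert retinol and retinal, 6 were higher and 5 lower in males in Q, 6 and 4 in R, and 4 and 4 in WT. Rdh10, the main retinol dehydrogenase of the embryo, had medians of 118, 97.6 and 98 CPM in male Q, R and WT (99.5 to 127, 92.5 to 124 and 92.8 to 128 CPM), against 60, 56.7 and 55.6 CPM in female Q, R and WT (48.4 to 71.4, 55.2 to 57.4 and 46.5 to 65.9 CPM). Its log2 fold change was 0.96, 0.89 and 0.94, with edgeR adjusted p of 1.13e-07, 1.41e-05 and 2.65e-07. Adh7, a class IV alcohol dehydrogenase active on retinol, was low, at 2.98 ± 0.721 CPM in male WT and 0.696 ± 0.151 CPM in female WT, with a log2 fold change of 2.09. Rdh19 was close to 0 in males, 0.137 ± 0.117 CPM in male WT against 1.79 ± 0.607 CPM in female WT. Dhrs4, which reduces carbonyls including retinal, was higher in males by 0.58 in WT on the log2 scale. Rdh11, Rdh16 and Dhrs7 were lower in males in all 3 genotypes, with log2 fold changes in WT of -0.67, -0.57 and -0.86.

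Of the 13 tested genes for binding, uptake and esterification, 2 were higher and 4 lower in males in Q, 2 and 5 in R, and 2 and 2 in WT. Stra6, the receptor that takes up retinol from its plasma carrier, averaged 1.39 ± 0.369 CPM in male WT and 4.72 ± 2.02 CPM in female WT, a log2 fold change of -1.78 (edgeR adjusted p = 0.00185), and was lower in males in Q and R as well, by log2 values of -2.47 and -1.93. Lrat, which esterifies retinol for storage, passed as lower in males in Q and R. Bco2, a carotenoid-cleaving enzyme, and Ttr, the carrier of thyroxine and of retinol-binding protein, were higher in males in all 3 genotypes, with log2 fold changes in WT of 0.74 and 1.71. Fabp5 was lower in males in all 3 genotypes, at -0.82 in WT.

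Of the 9 receptors and cofactors, 4 were higher and 3 lower in males in Q, 2 and 1 in R, and 1 and 1 in WT. Without both Q libraries that stood apart the receptors gave 3 and 2 in WT and 2 and 2 in R. Rxra, the common partner of nuclear receptors, was higher by 0.45 in WT, and Rxrg, a relative of it, lower at -1.21. Among 12 tested genes known to respond to retinoic acid, a list that includes Dhrs3 and Cyp26b1, 0 were higher and 3 lower in males in Q, 0 and 2 in R, and 0 and 3 in WT. Stra6 was in this list too, and Rarres1 was also lower in WT, at -0.92. The list's median log2 fold change was -0.18, -0.33 and -0.43 in Q, R and WT, beside -0.02, -0.03 and -0.03 over all genes. In WT the median was also below 0 for markers of podocytes (-0.367), intercalated cells (-0.383), fibroblasts and pericytes (-0.411) and immune cells (-0.45). Only the marker lists of proximal tubule and blood lay above 0, as given above. A median below 0 was therefore not particular to this list. Of the other clearance enzymes, Cyp2s1 was lower in males at -0.39 in WT, and Cyp26a1 did not pass.

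Of the 16 other aldehyde dehydrogenases, 7 were higher and 1 lower in males in Q, 3 and 1 in R, and 4 and 1 in WT. Aldh3a2, which oxidises fatty aldehydes, averaged 274 ± 11.2 CPM in male WT and 134 ± 8.28 CPM in female WT, a log2 fold change of 1.04 (edgeR adjusted p = 1.93e-07). Aldh1b1, a mitochondrial enzyme of acetaldehyde and retinal oxidation, was the one lower in males, with 2.55 ± 0.579 CPM in male WT and 7.98 ± 1.54 CPM in female WT (log2 fold change -1.65, edgeR adjusted p = 1.63e-07). Aldh5a1, which oxidises succinic semialdehyde, and Aldh9a1, which acts in carnitine synthesis, were higher in males by 0.52 and 0.53 in WT. Without both Q libraries that stood apart, 8 of the 16 were higher and 1 lower in males in WT, and 5 and 1 in R.

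**Figure D5:**
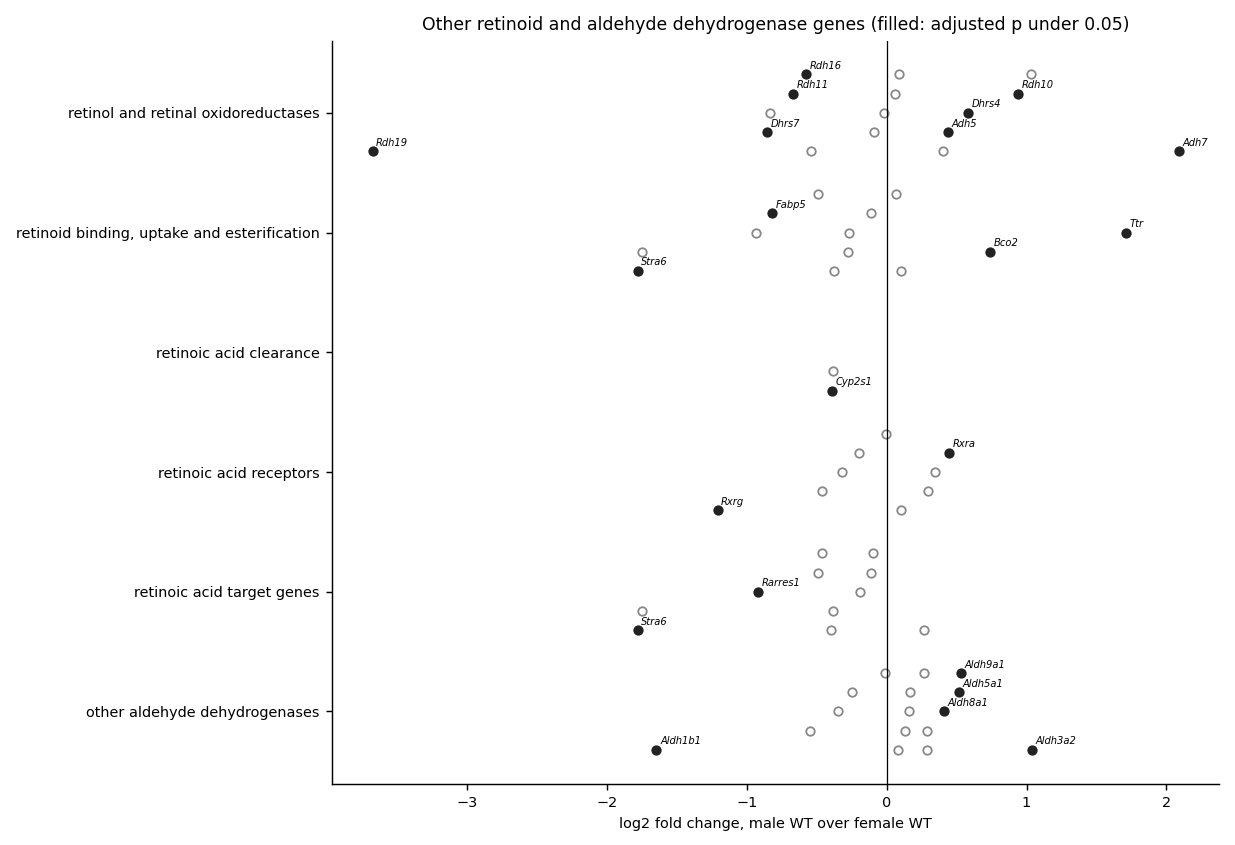
Fitted log2 fold change of male WT over female WT kidneys for tested genes of 6 lists, one row per list, with filled and named points for an edgeR adjusted p under 0.05. Called genes lie on both sides of 0 in the rows of oxidoreductases, binding proteins, receptors and other aldehyde dehydrogenases, and to the left of 0 in the rows of clearance enzymes and retinoic acid targets.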

How the data were processed

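Polyadenylated RNA of 28 kidney libraries was analysed from whole-number counts per gene, deposited by the authors without scaling. Per the file headers they were made with featureCounts (Subread 2.0.1) over exons of Ensembl release 107 on GRCm39, with fragments counted and no strand or multi-mapping option. Trim Galore 0.6.7, DESeq2 1.38.3 and SAMtools 1.6 are named in the submitters' processing notes, and the aligner is not given in the sources used here. Genes were matched to symbols by identifier, and genes without one held 0.669% of counts. Transcript lengths and overlaps came from GENCODE M21 on the older GRCm38.

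In R 4.3.3, filterByExpr kept 17573 genes. One model with 6 group means was fitted with TMM scaling by edgeR 4.0.16 (robust quasi-likelihood test, 22 residual degrees of freedom). P-values were adjusted by Benjamini-Hochberg over all genes in each of 14 contrasts, and a gene was called at an adjusted p under 0.05. SE is the log2 fold change over the root of F, and intervals are at 95%. Relations used log2 CPM (prior count 2) with group means subtracted and 100000 permutations within groups. Alternatives were DESeq2 size factors, the DESeq2 1.42.0 Wald test, limma 3.58.1 voom with quality weights, no filter, a replicate block, fits on fewer groups, library code order and leaving out libraries. The fit was tested on simulated counts.

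The 7 genes, the pathway lists and the marker lists were chosen with earlier results of these data known. All 7 genes are named in the comparisons between the sexes and in those of Q and R with WT within a sex. In the other contrasts the genes with an unadjusted p under 0.05 are named. Of each pathway list up to 4 genes by smallest p are named, with Rdh11, Rdh16, Dhrs7 and Fabp5 added for the lower side. For each of the 7 genes the 3 closest by r are named. Cyp2c44 had no match in the table, and 1 gene of the lists is counted but not reported here by name or drawn. Promoter sequences are from RefSeq, with windows of 250 bases before to 50 bases after the start.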

Additional observations from a re-analysis of the deposited data

Results flagged for a closer look

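Dixon's ratio was taken on CPM for 35 sets of values, the 7 genes in each of the groups of 5 libraries. In 4 of these sets 1 library lay far from the others. Chance gives about 1 in 20 only where values are normally distributed, and the ratio was not taken on the log scale. The 4 sets are therefore a description and are not measured against chance. Adh1 was 670 CPM in male WT replicate 4, against 516 to 557 CPM in the other male WT libraries. Aldh1a3 was 28.1 CPM in male WT replicate 2, against 2.48 to 9.40 CPM in the others of that group. Cyp26b1 was 87.2 CPM in male Q replicate 1, against 2.02 to 14.5 CPM in the other male Q libraries, and 48.2 CPM in male WT replicate 5, against 1.36 to 11.3 CPM in the other male WT libraries.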

How the results depend on the processing

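With the DESeq2 Wald test and with voom weights, 4 of the 7 genes were called between the sexes in R in place of 2, Aldh1a1 and Aldh1a3 in addition to Adh1 and Aldh1a2. With the replicate number as a block the count in R was 3, with Aldh1a1 at -0.98 (edgeR adjusted p = 0.0234). Same-numbered libraries showed no strong shared deviation (median r 0.006 over 65 pairs, 5 of them over 0.1). Whether the numbers stand for a pairing of the design is not given in the labels, and this check cannot decide it. Leaving out 1 library at a time gave 2 to 4 calls in WT, 3 in Q, 2 to 3 in R and 0 in every genotype and interaction contrast. The share of all genes called under each alternative is not given here, so the changes in these counts are no measure of the 7 genes. Of the values with an unadjusted p under 0.05, or called under some alternative, none changed sign under these alternatives.

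Aldh1a7 in WT did not pass without the filter (edgeR adjusted p = 0.0543) or with voom (adjusted p = 0.0671), and Aldh1a3 in WT passed with voom at -1.54 (adjusted p = 0.00686). Aldh1a3 in R passed with DESeq2 (adjusted p = 0.0476) and voom (adjusted p = 0.0493). Aldh1a1 in R also passed without male R replicate 2 (edgeR adjusted p = 0.0445) and without female R replicate 3 (edgeR adjusted p = 0.0375), and Aldh1a7 in R without male R replicate 1 (edgeR adjusted p = 0.0473). The cause was not tested. Without Pck1, which the proximal tubule also expresses, the adipocyte sum had no relation to the 7 genes that passed (lowest adjusted permutation p 0.334), a choice made after seeing the data. Without 1 library, the exact permutation p of the ratio in R was 0.0571 or 0.0952, the smallest that 4 against 3 or 5 against 2 libraries allow. Aldh1a2, with 37 counts at the lowest, and Cyp26b1, with 23, are the least precise by counting.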
